A study of Mus musculus with 30 samples.

Results

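The cytosolic ribosomal proteins are the protein subunits of the ribosomes that translate nuclear-encoded messenger RNA, and their genes were followed here across the forebrain of mice given clozapine, haloperidol or no drug. The genes were the probe sets with exactly 1 gene symbol, that symbol being Rpl or Rps with a number, Rplp0, Rplp1, Rplp2 or Rpsa. Mitochondrial ribosomal proteins, S6 kinases and pseudogenes were left out, and the probe set with the highest mean stood for a gene. This gave 45 of the 12393 genes that have such a probe set, 24 of the large and 21 of the small subunit. Of the 45, 40 averaged 4 or more on the log2 scale across the arrays and were tested, 20 of each subunit. The rule used names and mean levels only, not differences between groups. This family of genes was itself chosen with earlier results of these data known. A further 28 ribosomal protein genes, Rpl5 and Rplp1 among them, are on the array only through probe sets that name other symbols as well, and are not members.

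Expression was measured on Affymetrix MOE430A arrays, which hold sets of short oligonucleotide probes, in the forebrain of 30 individually housed male C57BL mice. The 10 clozapine-treated mice drank clozapine, an atypical antipsychotic that binds many receptors, at 12 mg/kg/day for 12 weeks. The 10 haloperidol-treated mice drank haloperidol, a typical antipsychotic that blocks dopamine D2 receptors, at 1.6 mg/kg/day for 12 weeks, and the 10 control mice were untreated. Each mouse had 1 array. The labels carry no transgene or knockout, and they disagree on the hemisphere, named right in some fields and left in another. They give the age as 4 weeks, which cannot be the age after the treatment, and a note beside the haloperidol dose names clozapine. In whole forebrain tissue, fewer cells of a type and less RNA per cell cannot be told apart.

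A ribosome has a large subunit, which joins amino acids and holds the tunnel through which the new chain leaves, and a small subunit, which binds the messenger RNA and decodes it. Each subunit is built on ribosomal RNA from many different proteins, most of them needed in 1 copy per ribosome, so cells make the proteins in matched amounts. In mammals the messenger RNAs of ribosomal proteins belong to the 5' terminal oligopyrimidine (TOP) class: they begin with a C followed by an unbroken run of pyrimidines, and their translation is switched by the mTOR pathway. Ribosomal protein genes also have many processed pseudogenes, whose near-identical sequence can bind the same array probes. In brain, ribosomes are present in the cell bodies of all cell types and in the dendrites of neurons.

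The start of transcription is shown for members on which the results below turn, since the tract there defines the TOP class. Of the 45 genes, 39 matched the RefSeq table of start sites (GRCm38.p6, 5' to 3'). Each window holds 10 bases before the start and 20 from it, and capitals mark the longest run of pyrimidines that opens with a C within 5 bases of the start and has at least 4 pyrimidines after it. The first 8 windows hold such a run and the last 3 do not. Rps24 has 2 listed starts: the 1 shown holds a run and the other does not. A gene with several listed starts counts below as having a feature where any of them has it.
Rpl38, chr11:114668570-114668599, plus strand: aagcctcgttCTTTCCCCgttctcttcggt
Rpl35, chr2:39005112-39005141, minus strand: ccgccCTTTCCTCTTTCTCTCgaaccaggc
Rpl13a, chr7:45128726-45128755, minus strand: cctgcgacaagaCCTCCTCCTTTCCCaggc
Rplp2, chr7:141447641-141447670, plus strand: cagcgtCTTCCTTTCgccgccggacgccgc
Rpl27a, chr7:109519185-109519214, plus strand: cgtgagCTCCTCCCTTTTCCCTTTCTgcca
Rps24, chr14:24490668-24490697, plus strand: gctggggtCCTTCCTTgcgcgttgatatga
Rps18, chr17:33955646-33955675, minus strand: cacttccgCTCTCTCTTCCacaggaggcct
Rps6, chr4:86857348-86857377, minus strand: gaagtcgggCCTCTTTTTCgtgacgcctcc
Rps28, chr17:33824543-33824572, minus strand: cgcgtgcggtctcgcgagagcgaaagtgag
Rplp0, chr5:115559457-115559486, plus strand: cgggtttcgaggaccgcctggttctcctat
Rps4x, chrX:102189372-102189401, minus strand: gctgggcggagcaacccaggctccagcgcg

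Such a run was found in 19 of the 39 genes (48.7%), against 21.2% of 27025 genes with a start in the table. Rpl27a had the longest run of these windows, 20 bases, followed by Rpl35 with 16 and Rpl13a with 14. With the C required exactly at the listed start, the share was 20.5% of the members and 3.01% of all genes. The motif CCGGAAG, a core of binding sites of ETS factors, lay on either strand between 250 bases before and 50 bases after the start in 51.3% of the members and 9.93% of all genes. The TATA box letters TATAAA were in 12.8% of the members and 15.7% of all genes. A match describes the letters of the window only, and a window without a run does not show that the messenger RNA lacks one.

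The arrays did not sort by treatment, which bears on every result below. Clustering over all probe sets tested put 11 arrays in cluster A (3 clozapine, 5 haloperidol, 3 control), 8 in cluster B (1, 3 and 4) and 7 in cluster C (5, 0 and 2), and left clozapine 7, haloperidol 2, haloperidol 7 and control 1 apart. The clusters come from the same values as the results and hold the groups in unequal numbers. With a cluster block, differences between groups and between clusters cannot be fully told apart. The difference between 3' and 5' control probe sets, a sign of RNA breakdown, was 4.09 on the log2 scale on control 1 and 2.45 on haloperidol 7, and between 0.47 and 1.36 on the other arrays. Markers of forebrain neurons, astrocytes, oligodendrocytes and microglia had mean levels of 7.53 or more in each group. The mean of 6 neuronal markers ranged between arrays from 8.53 to 10.45 in clozapine-treated mice, from 7.90 to 11.07 in haloperidol-treated mice and from 8.67 to 11.21 in controls, with 5 of 6 lower in clozapine-treated mice and 6 of 6 lower in haloperidol-treated mice than in controls by their means. Of 6 microglial markers, 3 had a lower and 3 a higher mean with clozapine against control. No marker was called, and the part of the markers in the results was not tested. None of the 3 blood and 4 pituitary markers with a probe set reached a mean of 4. Of 5 cerebellum markers, Pcp2 and Gabra6 were below 4, while Calb1 (10.45), Zic1 (9.31) and Cbln1 (6.01) passed. The mean of 4 olfactory bulb markers ranged between arrays from 4.56 to 7.30 in clozapine-treated mice. That mean ranged from 5.47 to 8.47 in haloperidol-treated mice and from 4.64 to 7.06 in controls.

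The comparison of clozapine with control asked whether the drug alters these transcripts over 12 weeks. No member passed the test: limma called 0 of 40, and 0 of 12944 probe sets in all (0%), at an adjusted p under 0.05, while 563 probe sets had an unadjusted p under 0.05. Of the 40 members 27 had a higher mean in clozapine-treated mice, against 55.3% of all probe sets, and the median difference was 0.059 on the log2 scale beside 0.023 over all probe sets. The small subunit had 17 of 20 higher with a median of 0.072, and the large subunit 10 of 20 with a median of -0.0018. For 38 of 40 members the 95% interval of the difference lay within 2-fold either way, as it did for 88.1% of all probe sets. The exceptions were Rpl27a and Rps25, the members with the widest spread.

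The smallest p among members was that of Rpl38, a large-subunit protein whose loss in mouse embryos disturbs the patterning of the skeleton. Its log2 values ran from 12.48 to 12.92 (median 12.65) in clozapine-treated mice, against values from 12.23 to 12.70 (median 12.52) in controls. The groups overlapped, with 9 of 10 clozapine values higher than the control mean. The difference was 0.17 (SE 0.080, 95% interval 0.0097 to 0.34), or 1.13-fold, with p = 0.0386 before adjustment and 1 after it in limma. Rpl38 was 1 of 40 members with an unadjusted p under 0.05 in the upward direction, a share set beside 2.12% of all probe sets. It was highest on clozapine 9, and without that array the difference was 0.15 (p = 0.0802 before adjustment).

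Several more large-subunit members had higher means. Rpl35, which sits at the mouth of the exit tunnel, ran from 12.35 to 13.02 (median 12.66) in clozapine-treated mice, against values from 11.91 to 12.87 (median 12.31) in controls, a difference of 0.31 (SE 0.16, 95% interval -0.010 to 0.64) with p = 0.0572 before adjustment. Rpl37a, a zinc-binding protein, ran from 12.89 to 13.29 (median 13.01) in clozapine-treated mice, against values from 12.63 to 13.17 (median 12.84) in controls. All 10 clozapine values of Rpl37a exceeded the control mean, and its difference was 0.18 (SE 0.089, 95% interval -0.0066 to 0.36), p = 0.0584 before adjustment. The lowest of its tested probe sets gave -0.18, so the probe sets of Rpl37a did not have 1 sign. Rpl41, the shortest ribosomal protein, had a difference of 0.20 (SE 0.14), and its 3 probe sets lay between 0.20 and 0.27. The 5 probe sets of Rpl35 also had 1 sign, between 0.14 and 0.31.

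In the small subunit, Rps27l, a paralog of Rps27 that p53 induces, ran from 8.45 to 8.90 (median 8.68) in clozapine-treated mice, against values from 7.97 to 9.20 (median 8.35) in controls. Again all 10 clozapine values exceeded the control mean, with a difference of 0.27 (SE 0.16, 95% interval -0.065 to 0.60) (p = 0.111 before adjustment). Its 3 probe sets gave 0.24 to 0.47. Rps18, a protein of the head of the small subunit, had a difference of 0.20 (SE 0.16) and exceeded the control mean on 8 of 10 clozapine arrays.

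Members with lower means in clozapine-treated mice were led by Rpl7a, a large-subunit protein, with values from 11.56 to 12.57 (median 12.27) in clozapine-treated mice, against values from 11.91 to 12.68 (median 12.30) in controls. Its difference was -0.19 (SE 0.14, 95% interval -0.48 to 0.094) with p = 0.179 before adjustment, and 5 of 10 clozapine arrays lay below the control mean. Rps4l, a paralog of Rps4x, differed by -0.26 (SE 0.27) and Rplp0, the base of the stalk that recruits elongation factors, by -0.15 (SE 0.17). Rpl7, Rpl13a and Rpl19 had differences of -0.057, -0.051 and -0.089. None of these lower members had an unadjusted p under 0.05, where 2.22% of all probe sets did.

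Weights on the arrays changed the calls of this comparison. When each array was weighted by how well it followed the fit (limma's arrayWeights), 1731 of 12944 probe sets were called (13.4%), 863 of them higher (6.67%), and 6 of 40 members were called, all higher: Rpl35, Rps27l, Rpl38, Rpl41, Rpl37a and Rpl37. Their weighted differences were 0.49, 0.41, 0.25, 0.30, 0.23 and 0.69, and the members' median was 0.12. The weights of controls 7 to 10, all of cluster B, were 3.44 to 4.86, and no other array had a weight above 1.69. The weighted calls thus compare clozapine mostly with these 4 control arrays, whose member levels were -0.057, -0.17, -0.26 and -0.14. Within cluster A, where 3 clozapine arrays met 3 control arrays, the members' median was 0.0091 with 23 of 40 higher, and within cluster C, with 5 against 2 arrays, it was 0.012 with 21 of 40 higher. With the cluster as a block the members' median was 0.024, beside 0.013 over all probe sets.

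**Figure D1:**
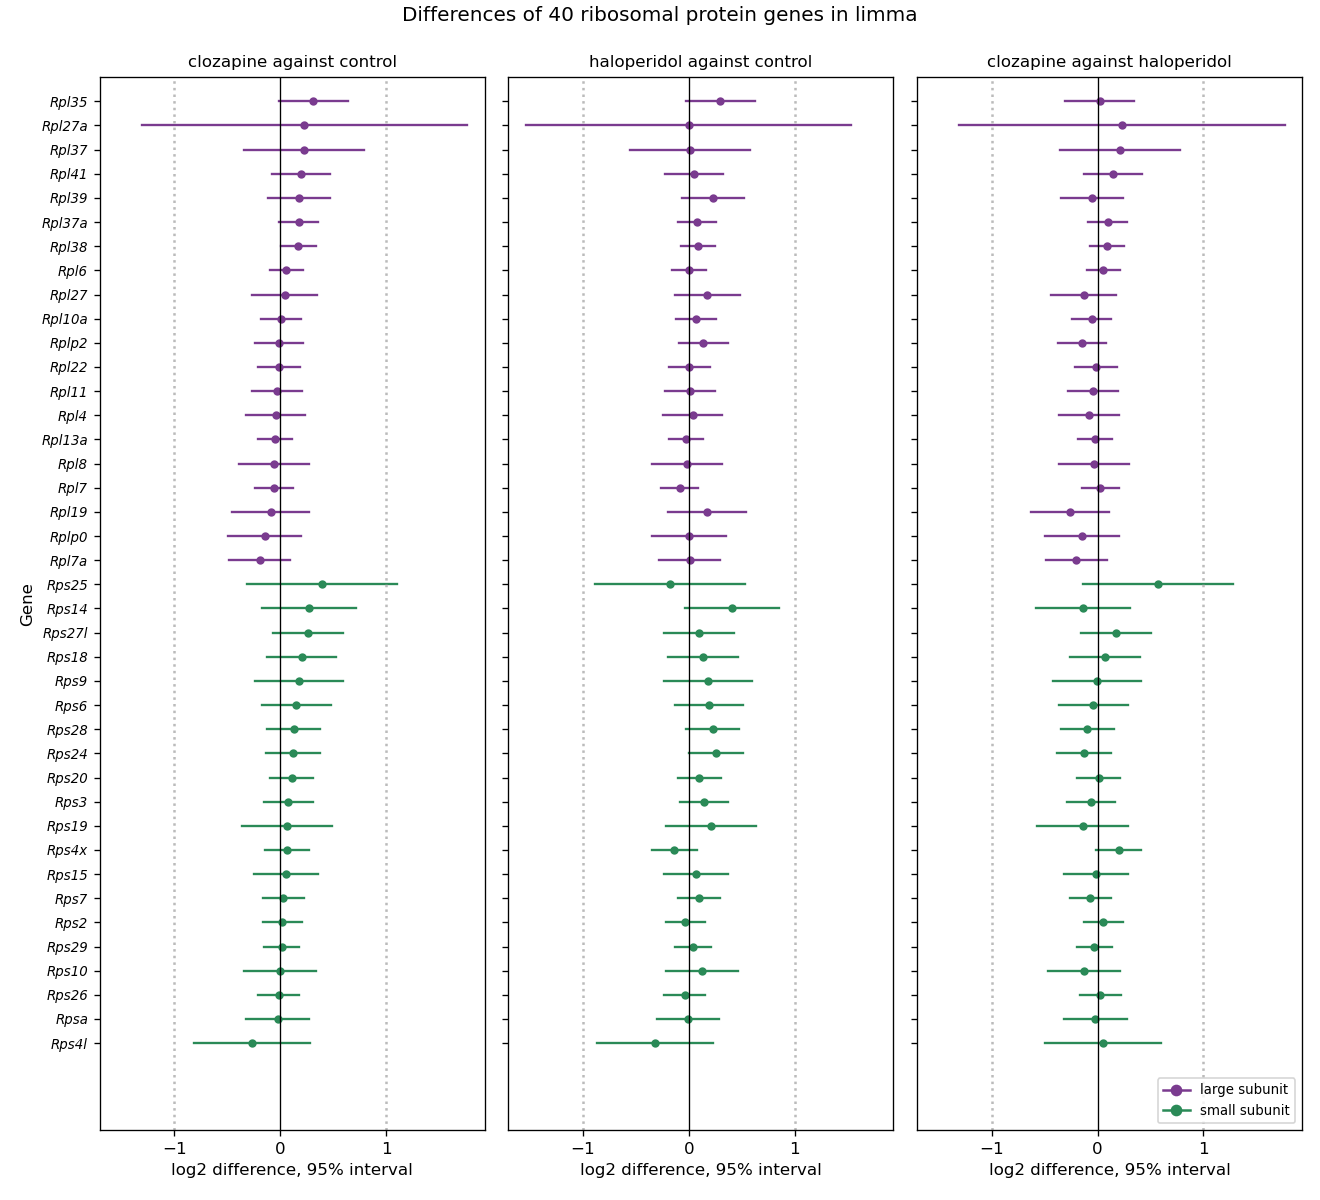
Differences of the 40 members in limma, in log2 units on the horizontal axis, with a gene per row and a comparison per panel. Points are differences of group means (10 mice each), bars are 95% confidence intervals, and dotted lines mark 2-fold. Most points lie within 0.3 of 0, and the widest interval belongs to Rpl27a.

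For haloperidol against control, limma called 0 of 40 members, beside 0 of 12944 probe sets (0%), 298 of which had an unadjusted p under 0.05. Means were higher in haloperidol-treated mice for 29 of 40 members, against 43.5% of all probe sets, with a median difference of 0.068 beside -0.030 over all probe sets. The small subunit had 14 of 20 higher (median 0.098) and the large subunit 15 of 20 (median 0.024). No member had an unadjusted p under 0.05, where 0.834% of all probe sets did upward and 1.47% downward. The 95% interval lay within 2-fold for 39 of 40 members and for 89.3% of all probe sets; the exception was Rpl27a.

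Rps24, a small-subunit protein mutated in some patients with Diamond-Blackfan anaemia, had the smallest p. It ran from 12.46 to 13.48 (median 13.02) in haloperidol-treated mice, against values from 12.47 to 13.23 (median 12.71) in controls, and 8 of 10 haloperidol arrays lay above the control mean. The difference was 0.25 (SE 0.13, 95% interval -0.0018 to 0.51), p = 0.0516 before adjustment and 1 after it in limma. The lowest haloperidol value of Rps24 was on haloperidol 2, and without that array the difference was 0.31 (p = 0.013 before adjustment in limma). Leaving out the lowest array of the higher group raises the difference by construction. In that refit 324 of 12944 probe sets had an unadjusted p under 0.05 and 0 were called. In each group the highest values of Rps24 were on cluster A arrays. The exception in order was control 1 at 12.84, just above the cluster A array control 3 at 12.81.

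Rps14, which is lost on 1 chromosome in the human 5q- syndrome, ran from 11.30 to 12.43 (median 12.13) in haloperidol-treated mice, against values from 9.53 to 12.15 (median 11.86) in controls. The lowest control value belonged to control 1, the array with the widest 3' minus 5' difference. The difference was 0.41 (SE 0.22, 95% interval -0.039 to 0.86) with that array and 0.17 without it, so most of the value came from 1 array. Rps28, a small protein at the exit of the messenger RNA channel, differed by 0.23 (SE 0.12) and its 3 probe sets by 0.13 to 0.26. Rps3, at the entry of that channel, differed by 0.14 (SE 0.11). In the large subunit, Rpl35 differed by 0.30 (SE 0.16) and Rpl39, which lines the exit tunnel, by 0.23 (SE 0.14). The 5 probe sets of Rpl35 did not have 1 sign here, from -0.023 to 0.30, and with the array cluster as a block its difference was 0.086.

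The X-linked Rps4x had the smallest p among members with lower means under haloperidol. Its values ran from 11.47 to 12.39 (median 11.77) in haloperidol-treated mice, against values from 11.77 to 12.26 (median 11.86) in controls. Below the control mean lay 9 of 10 haloperidol arrays, all but haloperidol 7. The difference was -0.14 (SE 0.10, 95% interval -0.34 to 0.073) with p = 0.195 before adjustment, and -0.20 (p = 0.0366 before adjustment in limma) without haloperidol 7. Haloperidol 7 held the highest haloperidol value, so leaving it out widens the difference by construction. In that refit 749 of 12944 probe sets had an unadjusted p under 0.05 and 0 were called. Its paralog Rps4l differed by -0.32 (SE 0.27), Rpl7 by -0.085 (SE 0.086) and Rps25, which some viral messenger RNAs need for initiation, by -0.18 (SE 0.35). Rps26 and Rps2 had differences of -0.040 and -0.034, both within 1 SE of 0.

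The members' median in this comparison changed when the array clusters, computed from the same values, entered the fit or split the arrays. With the cluster as a block it was -0.014 with 19 of 40 higher, beside -0.019 and 43.6% over all probe sets. Within cluster A (5 haloperidol and 3 control arrays) it was -0.0049 with 17 of 40 higher, and within cluster B (3 and 4 arrays) -0.017 with 16 of 40 higher. Without haloperidol 2 the members' median was 0.044 with 24 of 40 higher, beside -0.038 and 41.3% over all probe sets. With array weights the members' median was 0.12, beside -0.055 over all probe sets.

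**Figure D2:**
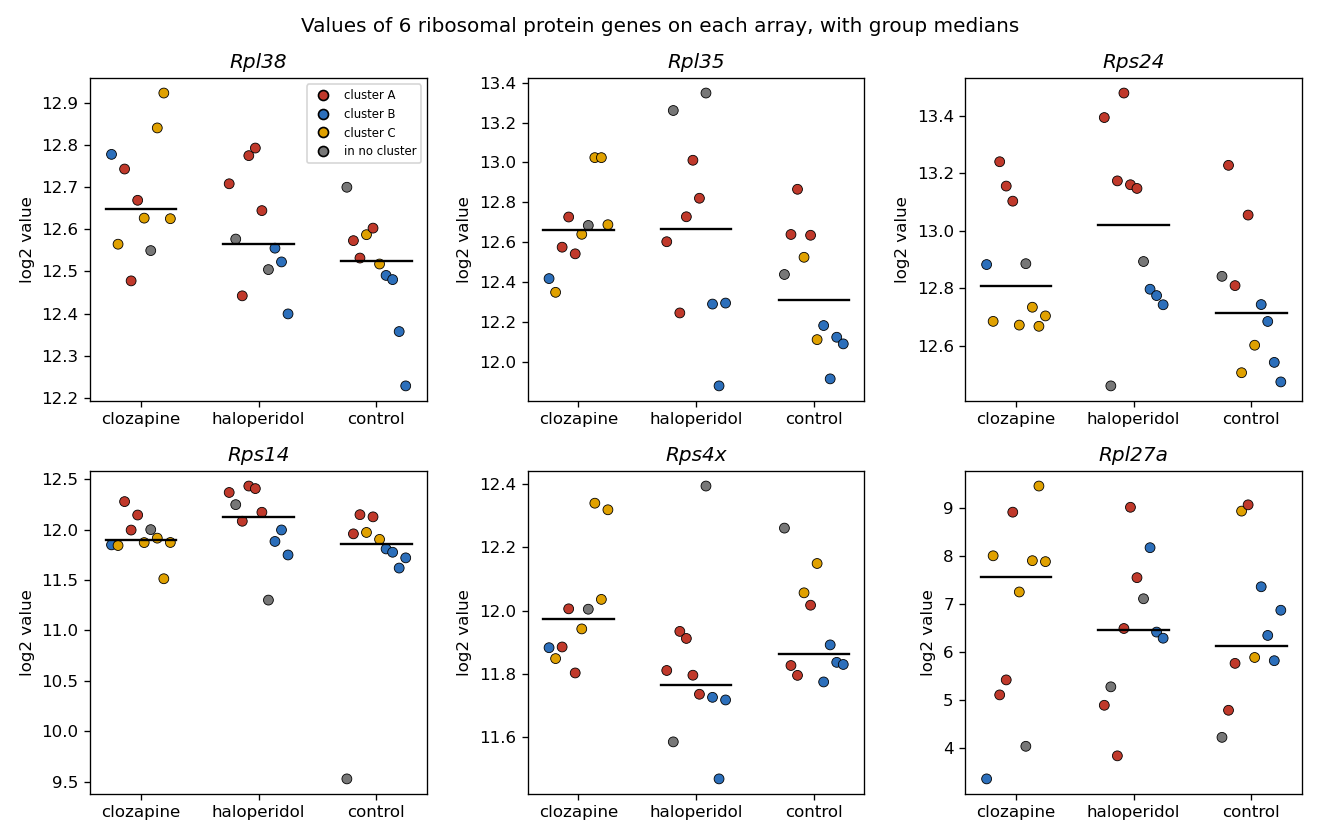
Log2 values of 6 members on each array, with clozapine, haloperidol and control arrays from left to right, points in order of replicate number, colours for the array cluster and a line at the group median. The groups overlap for all 6 genes; control 1 lies at 9.53 for Rps14, and Rpl27a spans several log2 units in each group.

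The drugs were then set against each other. Clozapine-treated mice had the higher mean for 16 of 40 members, against 60.7% of all probe sets, with a median difference of -0.022 beside 0.050; limma called 0 of 40 members and 0% of all probe sets, 406 of which had an unadjusted p under 0.05. Both subunits had 8 of 20 higher, with medians of -0.030 for the large and -0.016 for the small subunit. No member had an unadjusted p under 0.05 (2.21% of all probe sets higher, 0.927% lower). Rps4x came closest: its values ran from 11.80 to 12.34 (median 11.97) in clozapine-treated mice, against values from 11.47 to 12.39 (median 11.77) in haloperidol-treated mice, a difference of 0.20 (SE 0.10, 95% interval -0.011 to 0.41), p = 0.062 before adjustment and 0.965 after it. Without haloperidol 7, which held the highest haloperidol value, it was 0.26 (adjusted p = 0.4 in limma).

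Further members with higher means under clozapine were Rps25 (0.57, SE 0.35), Rps27l (0.17, SE 0.16), Rpl41 (0.15, SE 0.14), Rpl37a (0.097, SE 0.089) and Rpl38 (0.088, SE 0.080). Lower means were found for Rpl19, a protein of the bridge between subunits (-0.26, SE 0.18), Rpl7a (-0.20, SE 0.14), Rplp2 of the stalk (-0.15, SE 0.11), Rplp0 (-0.15, SE 0.17), Rpl27 (-0.13, SE 0.15) and Rps24 (-0.13, SE 0.13). The 95% interval lay within 2-fold for 38 of 40 members and 87.6% of all probe sets. These comparisons share arrays, so their values for a gene are not independent of each other. The direction of the members' median changed with the arrays used and with the block. Without haloperidol 2 it was 0.010 with 21 of 40 higher, beside 0.064 and 62.8% over all probe sets. With the cluster as a block it was 0.036 with 29 of 40 higher, beside 0.034 and 58.4% over all probe sets.

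By role, the stalk of the large subunit, which brings elongation factors to the ribosome, was measured through Rplp0 and Rplp2, while Rpl12 at its base was below the filter. Rplp2 had values from 11.82 to 12.74 (median 12.48) in clozapine-treated mice, from 12.32 to 13.03 (median 12.55) in haloperidol-treated mice and from 12.18 to 12.78 (median 12.42) in controls. Its differences from control were -0.011 with clozapine and 0.14 with haloperidol. Rplp0 differed from control by -0.15 and -0.0016, and its haloperidol arrays spanned 10.67 on haloperidol 7 to 12.89 on haloperidol 2. Controls lay within a narrower range, 11.55 to 12.06. Among haloperidol arrays, those 2 held the lowest and highest values of Rplp2 as well.

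Rpl11, which with the 5S ribosomal RNA can bind the p53 regulator Mdm2, differed by -0.030 (SE 0.11) with clozapine and 0.010 (SE 0.11) with haloperidol against control. Along the exit tunnel, Rpl4, which reaches into its wall, differed by -0.044 and 0.037, and Rpl35 and Rpl39 differed by 0.31 and 0.30, and by 0.18 and 0.23. On the path of the messenger RNA, Rps2 differed by 0.022 and -0.034, Rps3 by 0.079 and 0.14, and Rps15, near the decoding site, by 0.059 and 0.072. Rps3 had values from 12.00 to 12.72 (median 12.29) in clozapine-treated mice, from 12.06 to 12.68 (median 12.43) in haloperidol-treated mice and from 11.94 to 12.60 (median 12.17) in controls. Every group of Rps3 overlapped the others, and the upper end of each range came from a cluster A array or haloperidol 2.

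Rps6, the target of S6 kinase downstream of mTOR, was measured close to the filter, from 4.04 to 4.83 (median 4.26) in clozapine-treated mice, from 4.05 to 5.41 (median 4.27) in haloperidol-treated mice and from 3.76 to 4.86 (median 4.15) in controls. Its highest haloperidol value was on haloperidol 7, with the next at 4.49. The differences from control were 0.15 (SE 0.16) with clozapine and 0.19 (SE 0.16) with haloperidol. Rpsa, the small-subunit protein also known as the laminin receptor, differed by -0.024 (SE 0.14) and -0.005 (SE 0.14), with intervals of -0.32 to 0.27 and -0.30 to 0.29.

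Several members serve as reference genes in quantitative PCR, where a level that does not differ between groups is needed. Rpl13a had the smallest spread of the 4 measured: its values ran from 13.00 to 13.46 (median 13.25) in clozapine-treated mice, from 13.03 to 13.52 (median 13.21) in haloperidol-treated mice and from 13.04 to 13.42 (median 13.29) in controls, with an SD within groups of 0.13. Its differences were -0.051 (SE 0.079, 95% interval -0.21 to 0.11) for clozapine against control and -0.026 (SE 0.079, 95% interval -0.19 to 0.13) for haloperidol against control. Rplp0 and Rps18 had SDs of 0.38 and 0.36, and Rpl19 one of 0.40. Rpl19 differed by -0.26 (SE 0.18, 95% interval -0.63 to 0.10) between clozapine and haloperidol. The tested probe sets of Rpl13a did not have 1 sign, with clozapine against control from -0.051 to 0.33.

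Paralogs of ribosomal proteins are often restricted to certain tissues. Rpl3l, the paralog of striated muscle, and Rpl39l, a testis form, were below the filter in every group, with means of 3.22, 3.16 and 3.10 for Rpl3l and 2.66, 2.63 and 2.58 for Rpl39l in clozapine, haloperidol and control mice. Rpl12, Rpl14 and Rps27, which are not such tissue forms, were also below 4, with means over all arrays of 2.35, 3.52 and 3.38. Each of these 5 genes has 1 single-symbol probe set on the array, so a low value there cannot be set against a second measurement. Whether it reflects a scarce transcript or a probe set that binds poorly was not tested. None was tested. The lowest member that passed was Rps6 at a mean of 4.31, and the highest below the filter was Rpl14.

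The mean level of the members differed less between the groups than between mice of a group. The level of an array, taken as the mean deviation of the 40 members from their own means over all 30 arrays, was 0.023 ± 0.11 in clozapine-treated mice, 0.023 ± 0.20 in haloperidol-treated mice and -0.046 ± 0.15 in controls (SD, n = 10 each, log2). It reached 0.32 on haloperidol 2 and 0.27 on haloperidol 5, and was lowest on control 9 at -0.26. By cluster it was 0.13 ± 0.082 in A (n = 11), -0.17 ± 0.063 in B (n = 8) and -0.026 ± 0.099 in C (n = 7). Within cluster A the 3 clozapine arrays had 0.13, 0.14 and 0.14, and the 3 control arrays 0.15, 0.13 and 0.13. All 6 of these lay within a narrow band, and the 5 haloperidol arrays of that cluster ranged from -0.086 to 0.27.

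The arrays were also read by how many members lay above their own mean. On clozapine 4 and haloperidol 5, 36 of 40 members did, and on clozapine 3, haloperidol 2 and control 2, 34 did. On haloperidol 10, 0 of 40 members lay above their mean, on control 9, 3 did and on control 8, 4 did. Of the 18 arrays numbered 1 to 6, 14 had a level above 0, against 1 of the 12 numbered 7 to 10. All cluster A arrays were numbered 1 to 6, and all cluster B arrays but clozapine 1 were numbered 7 to 10. The split by number thus largely repeats the split between clusters A and B. The labels do not say what the replicate numbers stand for. Within numbers 1 to 6 the members' median was 0.047 for clozapine against control, 0.11 for haloperidol against control and -0.11 for clozapine against haloperidol. Within numbers 7 to 10 the medians were 0.068, -0.022 and 0.11 in that order, so the last had opposite directions in the 2 sets of numbers, with 9 and 31 of 40 higher.

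**Figure D3:**
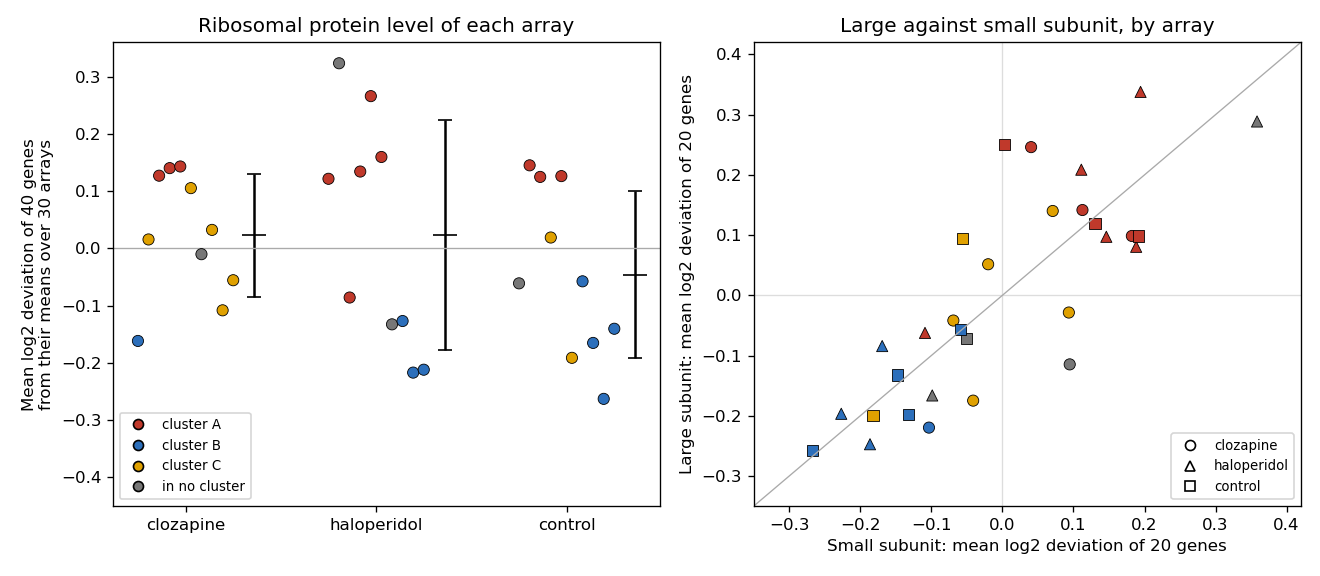
Left, the level of each array in log2 units, by group from left to right and coloured by array cluster, with the group mean and SD (n = 10) as a bar. Right, the large-subunit level of each array against its small-subunit level, with the line of equality. In the left panel all cluster A arrays but haloperidol 3 lie above 0 and all cluster B arrays below 0, in each of the 3 groups.

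The levels of the large and small subunit genes went together on most arrays. Both subunits' levels had the same sign on 26 of 30 arrays. Large minus small was -0.026 ± 0.13 in clozapine-treated mice, 0.0048 ± 0.086 in haloperidol-treated mice and 0.021 ± 0.10 in controls (SD, n = 10 each). The widest gaps were on control 5 (0.25), clozapine 5 (0.21) and clozapine 7 (-0.21). On haloperidol 2 both were high, 0.29 for the large and 0.36 for the small subunit.

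Between clusters A and B, 38 of 40 members had the higher mean in A, where 43.7% of all probe sets did. The median of the members was 0.27 beside -0.078 over all probe sets, 0.23 in the large and 0.36 in the small subunit. The clusters were computed from the same arrays and genes, so these values describe them and were not tested. Every A array lay above every B array for 8 of 40 members, against 8.3% of all probe sets: Rpl4, Rpl19, Rpl22, Rpl39, Rps3, Rps18, Rps19 and Rps28. No member lay wholly below, where 13.3% of all probe sets did. Rps19, whose loss causes Diamond-Blackfan anaemia, ran from 11.80 to 12.34 in A and from 10.98 to 11.40 in B. Rpl37 had the widest difference, 1.22, with A arrays from 8.80 to 9.63 and B arrays from 7.43 to 8.82. The 2 members lower in A were Rps4l (-0.66) and Rps25 (-0.58).

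Members were also split by the pyrimidine run of the start windows. The split follows the letters at the listed starts, which were not checked against measured starts. It does not separate TOP from other messenger RNAs. Of the 34 tested members with a listed start, the 16 with a run had a median A minus B difference of 0.22 with 16 higher, and the 18 without one had 0.32 with 17 higher. Rps28, which has no run in its window, differed by 0.45, and Rps18, which has one, by 0.59. Against control, the medians of genes with a run were 0.14 for clozapine and 0.13 for haloperidol, and those of genes without one 0.059 and 0.043. The counts did not differ in that way. Higher means were found for 11 of 16 genes with a run and 13 of 18 without one under clozapine. Under haloperidol they were found for 12 of 16 and 14 of 18. The difference between the sets was not tested.

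**Figure D4:**
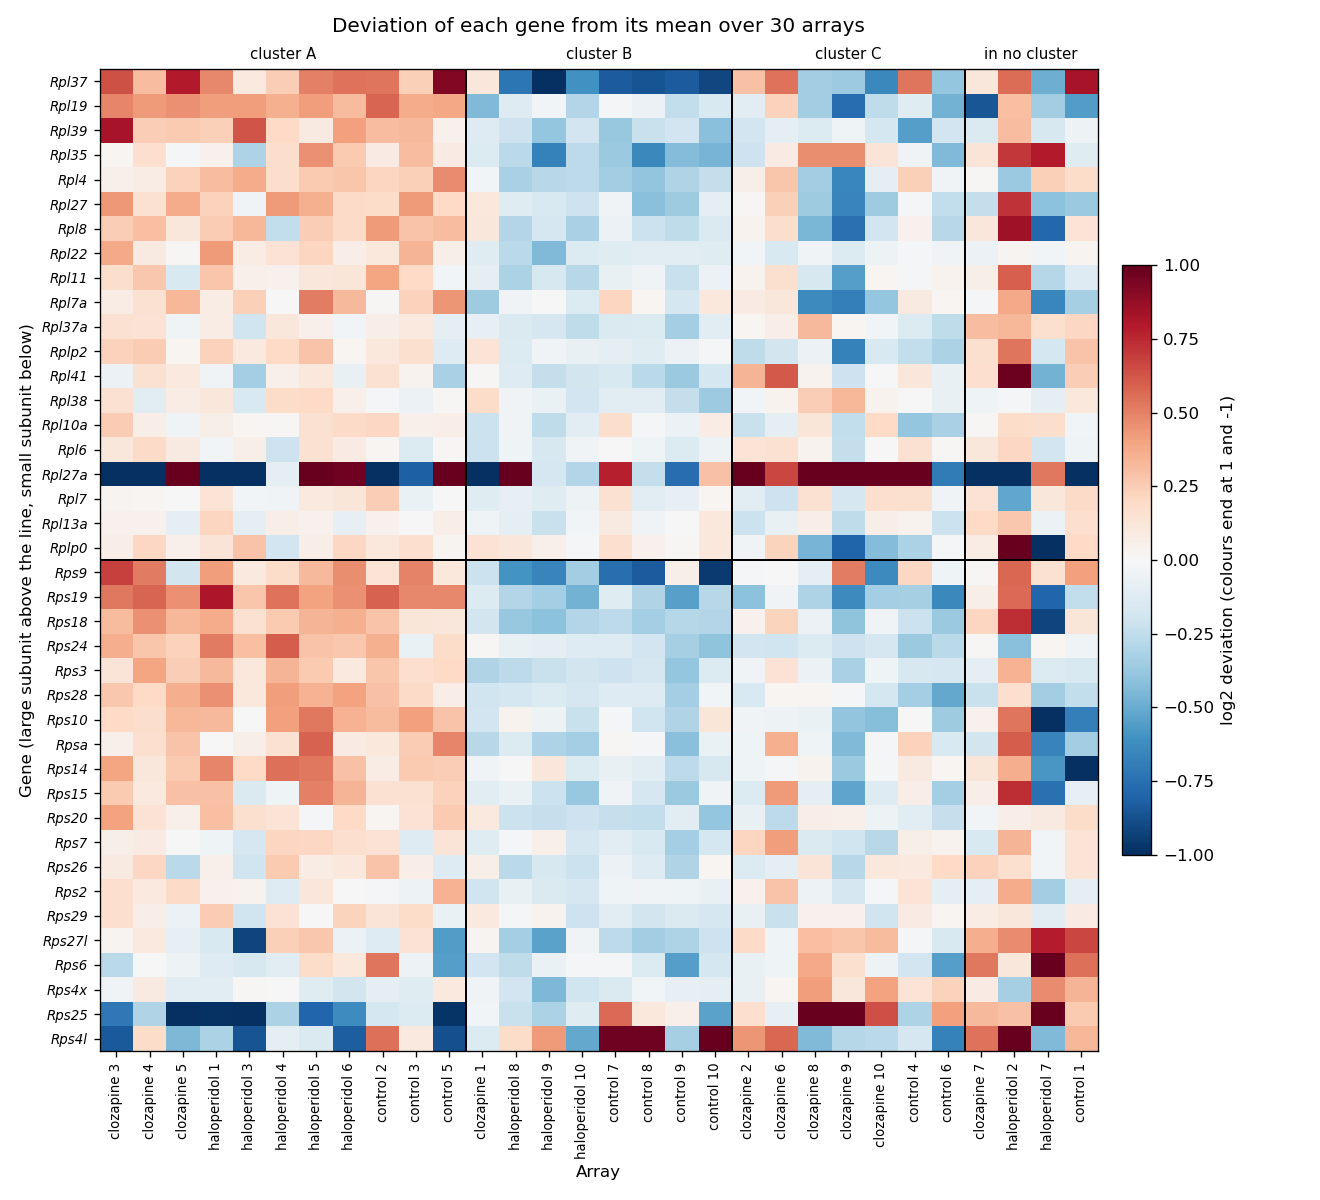
Log2 deviation of each member (rows) from its mean over 30 arrays on each array (columns), with arrays ordered by cluster and, within it, clozapine, haloperidol and control. Red is above and blue below the gene's mean. Most rows are red across cluster A and blue across cluster B. Rpl27a, Rps25 and Rps4l are among the rows that do not follow. By their cluster means, Rps4x, Rps27l, Rps6 and Rpl41 are slightly below their overall mean in A, and Rplp0 is above its own in B. Haloperidol 2 is the array with the highest value for 15 members.

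The spread between mice of a group differed widely among the members. The SD within groups had a median of 0.30 over the 40 members, beside 0.44 over all probe sets. Among those with a mean of at least 10 it was 0.26 for 32 members and 0.33 for 1385 probe sets. The tightest were Rpl6 (0.13), Rpl13a (0.13), Rpl38 (0.14) and Rps29 (0.14). Rpl6 had values from 11.09 to 11.52 (median 11.43) in clozapine-treated mice, from 11.12 to 11.53 (median 11.30) in haloperidol-treated mice and from 11.19 to 11.48 (median 11.31) in controls. Rps29, a zinc-binding protein of the small subunit, had values from 13.64 to 14.03 (median 13.91) in clozapine-treated mice, from 13.66 to 14.12 (median 13.88) in haloperidol-treated mice and from 13.68 to 14.04 (median 13.84) in controls.

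At the other end stood Rpl27a (1.77), Rps25 (0.81), Rpl37 (0.64), Rps4l (0.62), Rps14 (0.50) and Rps19 (0.47). Rpl27a had values from 3.35 to 9.46 (median 7.57) in clozapine-treated mice, from 3.83 to 9.02 (median 6.45) in haloperidol-treated mice and from 4.22 to 9.07 (median 6.11) in controls. Its values did not follow the clusters: cluster A held both haloperidol 3 at 3.83 and control 5 at 9.07. With such a spread the interval of its clozapine difference ran from -1.31 to 1.76, which takes in more than a 2-fold difference either way. Rps25 had values from 3.65 to 6.96 (median 4.75) in clozapine-treated mice, from 3.65 to 6.31 (median 4.36) in haloperidol-treated mice and from 3.70 to 5.25 (median 4.64) in controls. Its 2 highest arrays were clozapine 9 at 6.96 and clozapine 8 at 6.67, and without clozapine 9 its difference from control was 0.18 in place of 0.40. Rpl37 had values from 8.06 to 9.50 (median 8.91) in clozapine-treated mice, from 7.43 to 9.26 (median 8.88) in haloperidol-treated mice and from 7.79 to 9.63 (median 8.63) in controls. The lowest haloperidol and control values of Rpl37 were on cluster B arrays, and the lowest clozapine values on the cluster C arrays clozapine 10, 9 and 8.

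**Figure D5:**
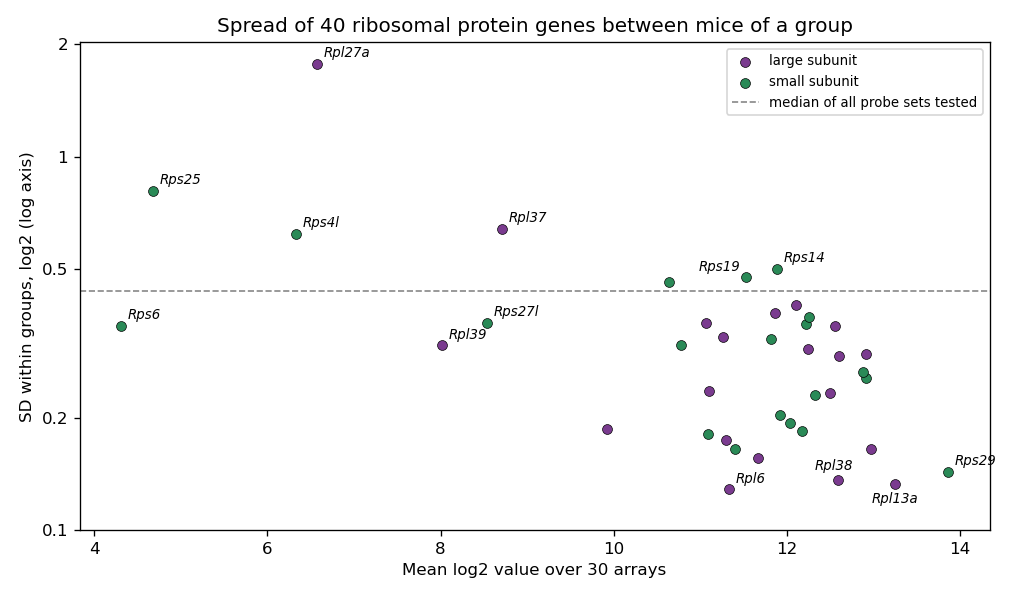
SD within groups of each member (vertical, log axis, log2 units) against its mean log2 value over 30 arrays, with large and small subunit in different colours and a dashed line at the median SD of all probe sets tested. The members with means above 10 lie mostly below the line, and Rpl27a, Rps25, Rps4l and Rpl37 lie above it.

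Of the 40 members, 18 had more than 1 probe set that passed the filter, which gives a second measurement of the same gene. All probe sets of a gene had 1 sign in 8 of 18 genes for clozapine against control, in 9 for haloperidol against control and in 9 for clozapine against haloperidol. Rps18 and Rpl41 had 1 sign in all 3 comparisons, as did Rps14, Rps28 and Rpl27. Rps29 ranged from -0.21 to 0.069 over its 3 probe sets for haloperidol against control. For 15 of the 45 genes the probe set used is of the kind whose name ends in x_at, with probes that can bind transcripts of other genes.

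Other genes of translation were read beside the members, and limma called 0 of them in each comparison. Each list is given by its count and by the genes with the smallest p in each direction. The counts are to be read beside the shares of all probe sets with a higher mean. These were 55.3% for clozapine against control (median 0.023), 43.5% for haloperidol against control (median -0.030) and 60.7% for clozapine against haloperidol (median 0.050). Of the associated subunits, Fau, which is made fused to a ubiquitin-like protein, was the 1 gene tested; it differed by 0.14 (SE 0.15) with clozapine against control, 0.12 with haloperidol against control and 0.021 with clozapine against haloperidol. Elongation factors drive the ribosome along the messenger RNA; their list of 7 genes, 6 of them tested, also holds Tpt1, the translationally controlled tumour protein, which is not an elongation factor. With clozapine against control, 3 of 6 had a higher mean (median -0.014); higher means were led by Eef1d (0.18, SE 0.20) and Tpt1 (0.040, SE 0.064) and lower means by Eef1a2 (-0.29, SE 0.28) and Eef1b2 (-0.14, SE 0.15). With haloperidol against control, 4 of 6 had a higher mean (median 0.031); higher means were led by Eef1d (0.23, SE 0.20) and Tpt1 (0.028, SE 0.064) and lower means by Eef1a2 (-0.32, SE 0.28) and Eef1a1 (-0.027, SE 0.092). With clozapine against haloperidol, 3 of 6 had a higher mean (median -0.014); higher means were led by Eef2 (0.054, SE 0.19) and Tpt1 (0.011, SE 0.064) and lower means by Eef1b2 (-0.17, SE 0.15) and Eef1a1 (-0.040, SE 0.092). On haloperidol 7 the level of this list was -0.63, the lowest of the 30 arrays.

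A further 9 genes have TOP messenger RNAs without coding for ribosomal proteins. With clozapine against control, 4 of 9 had a higher mean (median -0.0059); higher means were led by Hnrnpa1 (0.16, SE 0.17) and Btf3 (0.057, SE 0.13) and lower means by Pabpc1 (-0.43, SE 0.17) and Eif3e (-0.084, SE 0.19). With haloperidol against control, 4 of 9 had a higher mean (median -0.0075); higher means were led by Eif3f (0.11, SE 0.092) and Btf3 (0.13, SE 0.13) and lower means by Npm1 (-0.091, SE 0.18) and Eif3h (-0.039, SE 0.10). With clozapine against haloperidol, 4 of 9 had a higher mean (median -0.026); higher means were led by Hnrnpa1 (0.071, SE 0.17) and Npm1 (0.028, SE 0.18) and lower means by Pabpc1 (-0.43, SE 0.17) and Eif3f (-0.090, SE 0.092). Pabpc1, the poly(A)-binding protein, had unadjusted p of 0.0138 for clozapine against control and 0.0154 for clozapine against haloperidol. The near relatives Rpl22l1 and Rpl7l1 differed by -0.046 and -0.021 with clozapine against control, and by -0.085 and 0.10 with haloperidol against control.

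Of 25 genes for making ribosomes, such as nucleolar proteins and subunits of RNA polymerase I, 21 were tested. With clozapine against control, 11 of 21 had a higher mean (median 0.030); higher means were led by Ubtf (0.25, SE 0.15) and Polr1c (0.35, SE 0.21) and lower means by Gar1 (-0.33, SE 0.20) and Nop58 (-0.39, SE 0.29). With haloperidol against control, 8 of 21 had a higher mean (median -0.022); higher means were led by Polr1c (0.18, SE 0.21) and Nop2 (0.10, SE 0.15) and lower means by Wdr12 (-0.34, SE 0.14) and Nop58 (-0.45, SE 0.29). With clozapine against haloperidol, 14 of 21 had a higher mean (median 0.077); higher means were led by Nop10 (0.35, SE 0.20) and Gnl3 (0.42, SE 0.25) and lower means by Fbl (-0.29, SE 0.23) and Gar1 (-0.24, SE 0.20). Wdr12, a factor of large-subunit assembly, had an unadjusted p of 0.0227 for haloperidol against control.

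Mitochondrial ribosomal proteins serve the separate ribosome of mitochondria, and 73 of 74 genes were tested. With clozapine against control, 54 of 73 had a higher mean (median 0.053); higher means were led by Mrpl46 (0.26, SE 0.11) and Mrps24 (0.37, SE 0.18) and lower means by Mrpl3 (-0.30, SE 0.16) and Mrpl45 (-0.18, SE 0.14). With haloperidol against control, 35 of 73 had a higher mean (median -0.0074); higher means were led by Mrps30 (0.23, SE 0.16) and Mrpl58 (0.28, SE 0.22) and lower means by Mrpl27 (-0.25, SE 0.12) and Mrpl21 (-0.26, SE 0.13). With clozapine against haloperidol, 45 of 73 had a higher mean (median 0.088); higher means were led by Mrps36 (0.28, SE 0.11) and Mrpl46 (0.22, SE 0.11) and lower means by Mrpl3 (-0.20, SE 0.16) and Mrpl43 (-0.19, SE 0.16). By array cluster their level was -0.027 ± 0.16 in A and -0.098 ± 0.072 in B (SD, n = 11 and 8), where the cytosolic level was 0.13 ± 0.082 and -0.17 ± 0.063.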

How the data were processed

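The deposited values are log2 values, 1 per probe set and array, made by the authors with GCRMA per the labels' titles and the submitters' processing notes; GCRMA corrects background by probe sequence, normalizes between arrays and summarises probe sets. No version is stated. Groups follow the sample titles, and gene symbols the array's GEO annotation. Of 22626 probe sets that are not controls, the 12944 averaging 4 or more entered a single two-sided limma fit of all 30 arrays (limma 3.58.1, R 4.3.3), with Benjamini-Hochberg adjustment over the 12944 and calls at an adjusted p under 0.05. The fit was tried on simulated data with independent noise for each probe set. The simulation had no array clusters or outlying arrays, so it does not cover those features. The number of arrays limits the precision. The p-values set a difference against the spread between arrays of a group, each from 1 mouse. That spread also holds the differences between array clusters.

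The members and gene lists were chosen with earlier results of these data known, so lists carry counts and medians and no p. Genes were named by rule: in each comparison the 6 members with the smallest p in each direction, the 6 with the largest and 4 with the smallest SD, members below the filter, and members of listed roles; of other pathway lists, the 2 smallest p in each direction. Genes for which every A array lay above every B array were chosen once the values were known. The 7 array clusters come from average linkage of the arrays' Pearson correlations. Alternatives were quantile normalization, no filter, array weights, a covariate of RNA quality, the array cluster or the replicate number as a block, and outlying arrays left out; leaving out clozapine 9, a block of replicates 1 to 6 against 7 to 10 and probe sets of several symbols were added after seeing the data.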

Additional observations from a re-analysis of the deposited data

Results flagged for a closer look

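Dixon's test was run on 123 groups of 10 arrays, those of each of the 40 members and of the array level in each treatment. In 15 of them, all of members, the highest or lowest array stood far from its neighbour, which chance alone does in about 1 in 20 groups; arrays shared by several members are not independent. Haloperidol 7 held 4 of them: it was lowest for Rps10 at 11.18 (next 12.03) and highest for Rps25 at 6.31, Rps4x at 12.39 and Rps6 at 5.41. Haloperidol 2 was highest for Rpl41 at 13.58 (next 12.70) and lowest for Rpl7 at 11.15. Control 1 was lowest for Rps14 at 9.53, with the next control at 11.62. Clozapine 3 was highest for Rpl22 at 10.30 and for Rpl39 at 8.84, and clozapine 9 lowest for Rpl11 at 10.54. Among other controls, control 3 was highest for Rpl22 at 10.26, control 4 highest for Rpl6 at 11.48 and lowest for Rplp0 at 11.55, control 5 highest for Rps2 at 11.74 and control 6 lowest for Rpl13a at 13.04.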

How the results depend on the processing

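With array weights, 1731 probe sets and 6 members were called for clozapine against control, most of the control weight lying on controls 7 to 10 (each 3.44 or more, every other array at most 1.69); with the array cluster as a block 1 probe set, no member, was called for haloperidol against control; the cause was not tested. No other alternative called a probe set or a member in any comparison. Over the refits of all arrays or with arrays left out, and so without the values within clusters and within replicates 1 to 6 or 7 to 10 given above, the members' median ranged from 0.024 to 0.12 for clozapine against control, from -0.014 to 0.12 for haloperidol against control and from -0.039 to 0.036 for clozapine against haloperidol. The cluster block turned the sign of 6, 12 and 19 of 40 members in these comparisons. With the replicate number as a block 0 probe sets were called in each comparison (846, 540 and 642 at an unadjusted p under 0.05, against 563, 298 and 406 without it), and the members' medians stayed at 0.059, 0.068 and -0.022. The replicate numbers were not taken to pair the mice, since the labels name nothing they share and not every same-numbered pair correlated. Deviations of same-numbered arrays had correlations of -0.50 to 0.80 (median 0.16, 17 of 30 above 0.1), against a median of -0.13 with 104 of 270 above 0.1 for different numbers, and 4 of 30 arrays correlated best with their own number. Differences of weakly measured members such as Rps6 and Rps25 are limited by signal close to background.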

Other observations

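Probe sets that name a ribosomal protein gene together with other symbols, often pseudogenes, were left out above, and 90 of them passed the filter; they include the only probe sets of 28 ribosomal protein genes that are not members. Of these, 74 of 90 had higher means with clozapine against control (median 0.085) and 67 of 90 with haloperidol against control (median 0.057), where all probe sets had 55.3% and 43.5%. With clozapine against haloperidol 48 of 90 were higher (median 0.0088). None was called. Their level was 0.14 ± 0.069 in cluster A (SD, n = 11) and -0.19 ± 0.068 in cluster B (n = 8). Which transcript each of them bound cannot be told from the annotation.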
